A study of Rattus norvegicus with 2 samples.

Results

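Peptidergic sensory neurons are primary afferents of the dorsal root ganglion (DRG) that carry pain and temperature signals and store the neuropeptides CGRP and substance P. The cells described here were chosen by a readout. A barcode was a member if it held at least 500 UMIs (unique molecular identifiers, each a counted mRNA molecule), if under 20% of them came from genes whose symbols start with Mt-, if Stmn2, Prph, Snap25, Nefl and Nefm together reached 30 per 10000 UMIs and 15 raw UMIs, and if Calca and Tac1 together reached 50 per 10000 UMIs. No upper limit was set on the UMIs of a barcode. In all, 161 barcodes met the rule, 100 in the DPN library and 61 in the Control library, of 24179 deposited barcodes and of 21834 that passed the filters on UMIs and mitochondrial share.

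Both libraries were made from bilateral L3-L6 DRGs of male Sprague Dawley rats, a common outbred laboratory strain, bought at 8 weeks of age and kept 1 week before injection. The DPN (diabetic peripheral neuropathy) rats received 1 intraperitoneal injection of streptozotocin (STZ), a toxin of pancreatic beta cells, at 65 mg/kg, and the Control rats received the citrate buffer alone. Ganglia were taken 8 weeks after injection, dissociated with collagenase and trypsin, and passed over magnetic beads that remove dead cells. Ganglia of 5 rats were pooled in each library and each condition was 1 library, so rats within a condition could not be told apart, and condition and library cannot be told apart.

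With 1 library per condition no difference between DPN and Control could be tested. Levels are therefore given as counts per 1000000 UMIs (CPM), summed over members, with the ratio of DPN to Control and an exact 95% interval that covers counting error only, not the spread between cells or rats. Intervals of shares of members count cells of 1 library, and their overlap or lack of it is no test between conditions. Values in single members show how far the groups overlapped. UMIs were counted at the 3′ ends of transcripts, so levels are compared between groups and not between genes.

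As background, peptidergic nociceptors develop under nerve growth factor, one of whose receptors is p75 (Ngfr). They cleave precursor proteins in dense core vesicles and release CGRP, made from Calca and Calcb, and substance P, made from Tac1, from both their central and their peripheral ends. Many carry the heat- and capsaicin-gated channel TRPV1, and their peptides act on blood vessels, skin cells and neurons of the dorsal horn.

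The promoters of 4 peptide genes are shown because 2 of them chose the members and the other 2 set small groups of members apart. They are RefSeq sequences of the rat assembly GRCr8, from 250 bases before to 50 after each annotated start, 5′ to 3′ on the gene's own strand. Capitals mark TGACG, the core of the cAMP response element, on either strand (CGTCA on the other), or the whole element TGACGTCA, in which 2 core matches overlap. Calca lies at chr1:178317480-178317779 on the minus strand, Tac1 at chr4:36645333-36645632 on the plus strand, Sst at chr11:90461296-90461595 on the plus strand and Cartpt at chr2:32991186-32991485 on the minus strand.
Calca: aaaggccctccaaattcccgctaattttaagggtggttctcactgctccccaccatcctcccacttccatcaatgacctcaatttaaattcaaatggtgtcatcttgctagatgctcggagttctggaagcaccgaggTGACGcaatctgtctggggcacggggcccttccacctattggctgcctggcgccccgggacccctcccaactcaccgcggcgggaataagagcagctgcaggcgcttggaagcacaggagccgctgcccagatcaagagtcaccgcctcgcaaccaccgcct
Tac1: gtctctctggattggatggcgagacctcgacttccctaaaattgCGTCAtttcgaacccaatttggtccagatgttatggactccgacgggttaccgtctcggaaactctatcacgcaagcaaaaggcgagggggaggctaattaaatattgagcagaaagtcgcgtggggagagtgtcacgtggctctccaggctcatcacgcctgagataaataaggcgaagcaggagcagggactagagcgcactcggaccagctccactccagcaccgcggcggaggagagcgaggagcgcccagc
Sst: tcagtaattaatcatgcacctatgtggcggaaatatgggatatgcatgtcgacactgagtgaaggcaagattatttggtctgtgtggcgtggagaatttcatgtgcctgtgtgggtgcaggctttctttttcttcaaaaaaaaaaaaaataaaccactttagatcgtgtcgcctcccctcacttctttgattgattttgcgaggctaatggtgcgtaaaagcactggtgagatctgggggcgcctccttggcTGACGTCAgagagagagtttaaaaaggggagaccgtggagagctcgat
Cartpt: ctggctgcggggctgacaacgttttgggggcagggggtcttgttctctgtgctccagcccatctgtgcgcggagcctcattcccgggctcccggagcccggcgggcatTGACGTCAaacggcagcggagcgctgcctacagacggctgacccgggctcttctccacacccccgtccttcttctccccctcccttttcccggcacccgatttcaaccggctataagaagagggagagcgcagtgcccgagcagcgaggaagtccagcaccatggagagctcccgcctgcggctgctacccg
The core was found in 21.2% of the 33469 rat promoter windows of this length and the whole element in 1.83%. Calca and Tac1 held the core alone, and Sst and Cartpt held the whole element. These matches are letters in a window, and binding was not measured.

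Members were among the deepest barcodes of both libraries. UMIs per member ran from 671 through a median of 86700 to 195355 in DPN, and from 1617 through a median of 117088 to 245907 in Control. The DPN median was 14.6 times that of all DPN barcodes (5919 UMIs), and the Control median 13.0 times that of all Control barcodes (8993 UMIs). Neurons that met the rule except for low Calca and Tac1 were about as deep, with medians of 88870 UMIs in DPN and 109008 UMIs in Control. Members made up 0.849% of the passing barcodes in DPN (exact binomial interval 0.691 to 1.03%) and 0.607% in Control (0.464 to 0.779%), yet carried 7.52% of all UMIs in the DPN library and 5.64% in the Control library. The median number of genes per member was 7447 in DPN and 7456 in Control.

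The filter stated for the study, within 4 median absolute deviations (MAD) of the median number of UMIs and genes, would have kept few of them. Its upper UMI limit came to 25733 in DPN and 36409 in Control by the computation made here, and 87 of 100 DPN members and 49 of 61 Control members lay above it. Only 13 DPN and 12 Control members fell within the limits on both UMIs and genes. Their median depth was 1826 UMIs in DPN and 13304 UMIs in Control, so the members that such a filter leaves differed in depth between the libraries far more than the full sets did. Members of at least 10000 UMIs numbered 88 in DPN and 57 in Control and held 99.7% of all member UMIs in DPN and 99.8% in Control, so summed levels describe these deep cells. The highest values of single members given below can come from shallow cells, as 8 DPN members and 1 Control member held under 2000 UMIs. In DPN the highest Scg2 (7663 CPM) was in a member of 1305 UMIs and the highest Cacna2d1 (1600 CPM) in a member of 1250 UMIs. The highest Kif1a (784 CPM) was in a member of 1276 UMIs and the highest Asic1 (1785 CPM) in a member of 2801 UMIs.

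**Figure D1:**
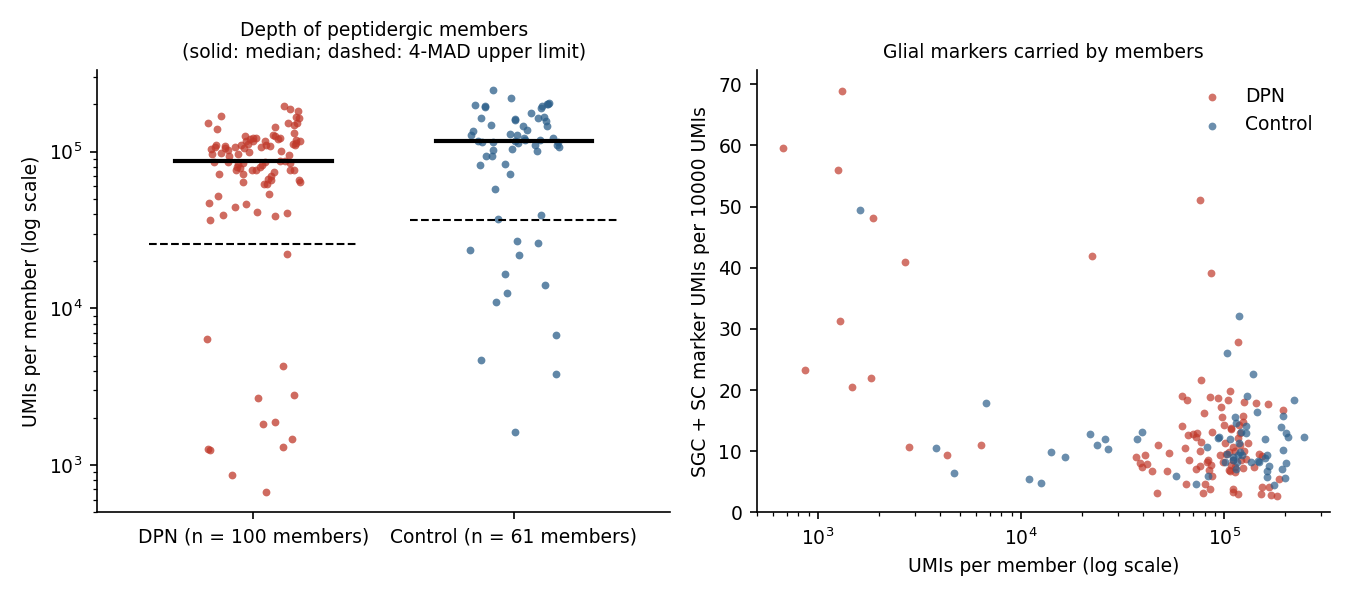
UMIs per member on a log scale (left; solid line, median; dashed line, upper 4-MAD limit) and the summed SGC and SC markers per 10000 UMIs against UMIs (right, log scale) for the 100 DPN and 61 Control members, each point being 1 member. Most points lie above the dashed limits of 25733 UMIs in DPN and 36409 in Control, and the points of highest glial share include several under 2000 UMIs.

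The mitochondrial share, used by the rule, had a median of 11.6% in DPN members (0.335 to 19.7%) and 12.1% in Control members (0.928 to 19.6%), and 27 DPN and 16 Control barcodes met the gene limits but not the mitochondrial one. The peptide limit of 50 per 10000 did not fall in a wide gap. The members just inside it had 51.2, 52.8 and 53.4 per 10000 in DPN and 56.7, 65.8 and 71.4 in Control, and the neurons just outside had 46.4, 46.1 and 45.4 in DPN and 43.1, 42.9 and 42.9 in Control. For the 5 neuronal genes the lowest members had 53.6 per 10000 in DPN and 91.1 in Control. The 2 libraries shared 38 barcode sequences, and 0 members were among them. Scrublet, a doublet caller, scored each passing barcode, and the highest scores were marked at an assumed rate of 0.8% per 1000 barcodes. That rate set the marked shares of 9.43% in DPN and 8.04% in Control, and 0 members were marked.

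Glial transcripts came along at a low level. Satellite glial cells (SGCs) wrap each neuronal soma, and Schwann cells (SCs) wrap its axon. The 9 SGC markers summed to 383 CPM in DPN members and 423 CPM in Control members, of which Dbi, a binding protein of acyl-CoA that is not restricted to glia, gave 329 CPM in DPN and 350 CPM in Control. Without Dbi the list summed to 54.0 CPM in DPN members and 73.0 CPM in Control members, against 4271 CPM in DPN SGCs and 5716 CPM in Control SGCs of the same libraries. The 12 SC markers summed to 735 CPM in DPN and 722 CPM in Control members, of which Pmp22, a myelin protein also transcribed elsewhere, gave 575 CPM in DPN and 537 CPM in Control, and 161 CPM in DPN and 186 CPM in Control remained without it. No member reached 100 per 10000 UMIs of both lists together.

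The defining glial genes were low in both groups. Fabp7, the fatty acid binding protein that marks SGCs, was at 5.30 CPM in DPN and 10.4 CPM in Control members, and Tyrp1, the other gene that chose the SGCs, at 11.3 CPM in DPN and 16.6 CPM in Control. S100b, a calcium-binding protein of glia, was at 32.7 CPM in DPN and 94.5 CPM in Control, but an equal weight for each member gave a ratio of 1.06 in place of 0.346. The SC marker Scn7a, a salt-sensing sodium channel, stood on the other side, at 49.4 CPM in DPN and 11.6 CPM in Control, and its ratio of 4.27 was close to that of SGCs (3.55) and of the other neurons (3.76). In DPN the median SGC marker sum was 1915 CPM over the 8 members under 2000 UMIs, 672 CPM over the 4 of 2000 to under 10000 UMIs and 262 CPM over the 88 of at least 10000 UMIs. Control had no such order, with 4329 CPM in its 1 member under 2000 UMIs, a median of 264 CPM over the 3 of 2000 to under 10000 UMIs and a median of 360 CPM over the 57 of at least 10000 UMIs. Across all members the rank correlation of UMIs with the SGC sum was -0.08 in DPN (n = 100) and 0.06 in Control (n = 61), a description of cells that share a library.

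Markers of the remaining cell types were near 0. Endothelial markers summed to 5.53 CPM in DPN and 7.47 CPM in Control members, mural markers to 4.61 CPM in DPN and 5.42 CPM in Control, fibroblast markers to 13.7 CPM in DPN and 11 CPM in Control, and macrophage markers to 5.18 CPM in DPN and 3.66 CPM in Control. Neutrophil, T and NK cell and red blood cell markers each summed to at most 1.03 CPM in either group, with 3 of 5 T and NK cell markers and 2 of 4 red blood cell markers at 0 UMIs in both. The part of any such RNA in the differences below was not tested, apart from the values given beside them.

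The peptide genes that chose the members were close between the groups. Calca, the CGRP precursor gene, ran from 0 through a median of 7801 CPM to 53518 CPM over DPN members, and from 0 through 8040 CPM to 37245 CPM over Control members. Tac1, the substance P precursor gene, ran from 0 through 7662 CPM to 29016 CPM in DPN members and from 0 through 8196 CPM to 31442 CPM in Control members. The groups overlapped over nearly their whole range for both genes, and the ratios of the sums were 0.928 for Calca and 0.900 for Tac1. Members held 72.0% of all Calca UMIs of the DPN library and 82.4% of the Control library, and 76.0% of its Tac1 UMIs in DPN and 87.2% in Control. A few members passed by 1 peptide alone, so a level of 0 for the other stands at the low end.

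Among the neuronal genes of the rule, Stmn2, which regulates microtubules in growing axons, had a ratio of 0.989. Prph, the intermediate filament of small neurons, had a ratio of 0.825, and Snap25, a SNARE protein of vesicle fusion, one of 0.925. The neurofilament genes Nefl and Nefm had ratios of 0.862 and 0.918. All 7 of these ratios are descriptions, because the rule set a floor on these genes in both groups. Members of at least 10000 UMIs with more Calca also tended to carry more Tac1, with a rank correlation of 0.67 over 88 DPN members and 0.51 over 57 Control members, cells that share a library and a selection on the sum of both genes.

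**Figure D2:**
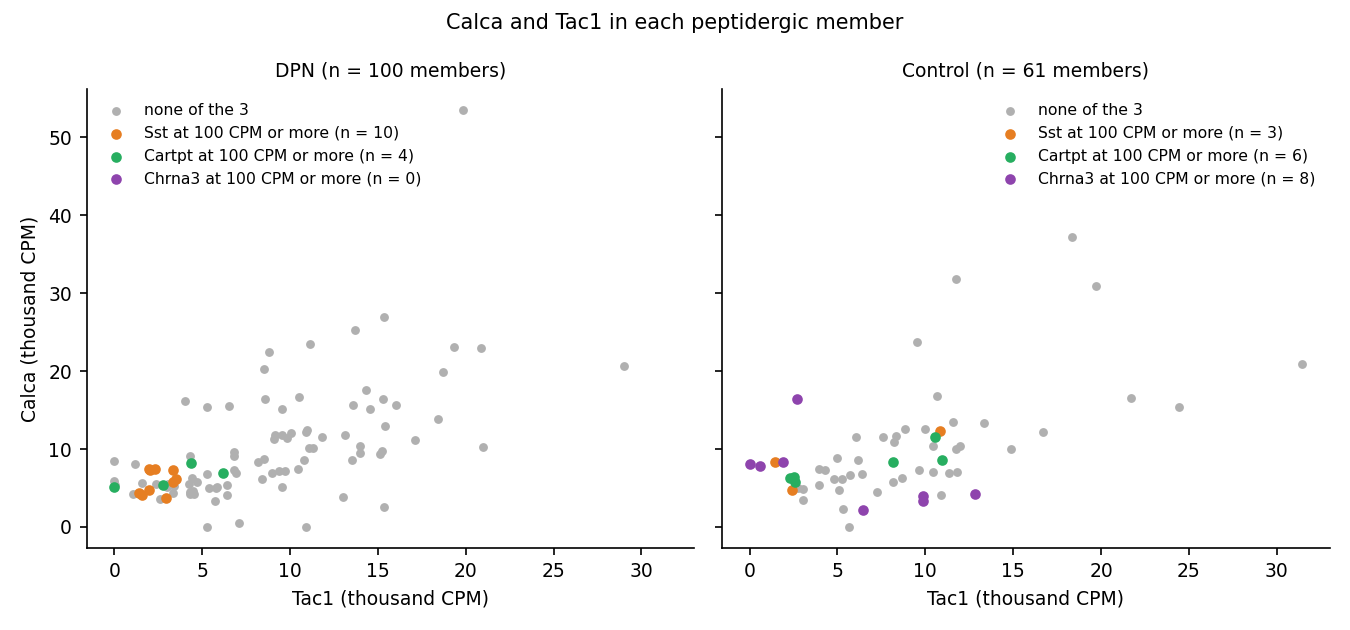
Calca against Tac1 in units of 1000 CPM for each DPN member (left, n = 100) and each Control member (right, n = 61), with members coloured where Sst, Cartpt or Chrna3 reached 100 CPM. The 10 Sst members of DPN sit low on the Tac1 axis (median 2193 CPM), and all 8 Chrna3 members are in Control.

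Markers of peptidergic neurons outside the rule summed to more in members than in the other neurons. Between the libraries, 2 of 9 measured markers were at least 1.5-fold higher in DPN and 3 at least 1.5-fold lower. Cartpt and Trpv1 were among the lower ones. Over all genes with at least 20 UMIs these shares were 26.3% and 5.85%. Calcb, the second CGRP gene, summed to 662 CPM in DPN and 661 CPM in Control members, a ratio of 1.0 (0.964 to 1.04). Adcyap1, which encodes the vasodilator peptide PACAP, ran from 0 through a median of 545 CPM to 1731 CPM in DPN members and from 0 through 488 CPM to 1902 CPM in Control members, a ratio of 1.08 (1.03 to 1.13). The whole list of such markers summed to 2358 CPM in DPN and 2667 CPM in Control members, against 963 CPM in DPN and 755 CPM in Control neurons that met the same rule except for low Calca and Tac1 (low-Calca neurons, 143 in DPN and 79 in Control). Non-peptidergic markers, in contrast, were not low in every member, as the Sst cells described below show.

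In members, 6196 genes had at least 200 UMIs over both libraries, and 1005 of them (16.2%) were at least 1.5-fold higher in DPN while 224 (3.62%) were at least 1.5-fold lower. The median log2 ratio was 0.05, so the middle of the distribution lay close to a ratio of 1. This lean to higher genes lay in the less abundant ones. Of genes under 50 CPM on average 21.8% were past 1.5-fold higher, and of genes of at least 1000 CPM 2.22%. It was also seen outside the members, with 13.9% of 6970 genes higher and 1.72% lower in low-Calca neurons, 22.2% higher and 2.13% lower in SGCs, and 16.6% higher and 4.72% lower in endothelial cells. When each ratio in members was divided by that of low-Calca neurons, 206 genes (3.34%) were past 1.5-fold higher and 183 (2.96%) lower. Because the libraries are the same in all of these comparisons, the ratio in low-Calca neurons is given below beside many genes.

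For gene lists, which include less abundant genes, the count of at least 20 UMIs left 10795 genes. Of these 26.3% were at least 1.5-fold higher in DPN and 5.85% lower, with a median log2 ratio of 0.12. Each list count below is to be read beside these shares. Long and nuclear-retained transcripts, which gather genes such as Nktr and Srrm2, had 8 of 10 past 1.5-fold higher and a median log2 ratio of 0.81. Srrm2, a scaffold of nuclear speckles, was at 174 CPM in DPN members and 69.3 CPM in Control members, a ratio of 2.51, and 2.17 in low-Calca neurons. Cytosolic ribosomal protein genes had 0 of 26 past 1.5-fold in either direction and a median log2 ratio of -0.02.

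Peptide precursors as a list had 1 of 10 measured genes past 1.5-fold higher (Sst) and 2 lower (Cartpt and Vip). All genes had 26.3% and 5.85%. The median log2 ratio of the list was -0.05. The list holds Calca and Tac1, on whose sum the rule set a floor in both groups. Gal encodes galanin, a peptide that sensory neurons are known to induce after axon injury. It ran from 0 through a median of 54.7 CPM to 2633 CPM over DPN members and from 0 through 42.9 CPM to 3165 CPM over Control members. Its summed ratio was 1.17 (1.09 to 1.25), but with each member weighted equally it was 0.605, and among members under 10% mitochondrial UMIs it was 4.91. Members of at least 1000 CPM of Gal numbered 6 in DPN and 10 in Control, with a median depth of 80747 UMIs in DPN and 21686 UMIs in Control, so no direction can be given for Gal.

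Sst, the somatostatin precursor gene, was carried by few cells. At 100 CPM or more it marked 10 of 100 DPN members (10%, interval 4.90 to 17.6%) and 3 of 61 Control members (4.92%, 1.03 to 13.7%). These intervals overlap and leave out the spread between rats. Within the 10 DPN cells Sst ran from 3225 CPM through a median of 6074 CPM to 8355 CPM, and the 3 Control cells had 244, 3498 and 10928 CPM. The summed level was 956 CPM in DPN and 115 CPM in Control members, a ratio of 8.35 (7.75 to 8.99). The ratio changed with the weight given to deep cells and with the peptide limit. The Control cell with the highest level held only 10981 UMIs while the 10 DPN cells had a median of 134236, and the ratio was 2.53 with equal weight per member and 3.45 without the 5 deepest members of each library. It was 24.0 when Calca and Tac1 had to reach 100 per 10000. Sst was also found in SGCs, at 13.5 CPM in DPN and 0.766 CPM in Control, and in low-Calca neurons, at 84.6 CPM in DPN and 1.0 CPM in Control.

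These Sst cells differed from the other members in more than 1 gene. In the mouse, Sst, Nppb and the receptor genes Il31ra and Osmr mark a class of itch-sensing neurons that is grouped with non-peptidergic neurons. Il31ra, a receptor subunit for the itch cytokine interleukin-31, had UMIs in all 10 DPN and all 3 Control cells, and Nppb, the natriuretic peptide gene, in 9 of 10 DPN and 3 of 3 Control cells. Osmr had UMIs in 10 of 10 DPN and 2 of 3 Control cells. The other members of both libraries had a median of 0 CPM for Il31ra, Nppb and Osmr. Some of them held UMIs, as Il31ra did in 3 of the 8 Control members with 100 CPM or more of Chrna3. Gfra3, a growth factor receptor gene, had a median of 0 CPM over the 10 DPN cells and 199 CPM over the other DPN members. Over the 3 Control cells its median was 0 CPM and its highest value 488 CPM, beside a median of 378 CPM in the other Control members. Gal was at 0 in all Sst cells of both libraries. Tac1, which the rule used, had a median of 2193 CPM in the DPN Sst cells and 8699 CPM in the other DPN members. The 3 Control Sst cells had 1457, 2393 and 10818 CPM, and the other Control members a median of 8277 CPM. The Control cell with the most Tac1 was the one with the least Sst. Calca, the other gene of the rule, had a median of 5985 CPM in the DPN Sst cells and 8581 CPM in the other DPN members, and of 8378 CPM in the Control Sst cells and 7935 CPM in the other Control members.

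Cartpt encodes the CART peptide. At 100 CPM or more it marked 4 of 100 DPN members (4%, 1.10 to 9.93%) and 6 of 61 Control members (9.84%, 3.70 to 20.2%). The 4 DPN cells had 233, 763, 1597 and 3866 CPM, the lowest in a member of only 4295 UMIs and so on very few UMIs. Over the 6 Control cells Cartpt ran from 1298 CPM through a median of 2233 CPM to 4183 CPM. Its sum was 67.2 CPM in DPN and 174 CPM in Control members, a ratio of 0.386 (0.349 to 0.427). Leaving out the members with at least 100 CPM of Sst, Chrna3 or Cartpt, chosen after their values were seen, brought the ratio of Cartpt to 0.965, as the choice removes its own carriers. The 6 Control cells also carried Gal (median 1151 CPM) and Trpv1 (median 560 CPM). The medians over the 4 DPN cells were lower, 148 CPM for Gal and 143 CPM for Trpv1. In low-Calca neurons, where Cartpt was at 9.28 CPM in DPN and 3.75 CPM in Control, the ratio was 2.47.

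Of genes for processing peptides and filling dense core vesicles 4 of 13 were past 1.5-fold higher and 0 lower, a share near the 26.3% of all genes with at least 20 UMIs, and the median log2 ratio was 0.18. Scg2, which encodes secretogranin II, a granin packed with peptides, ran from 0 through a median of 1116 CPM to 7663 CPM in DPN members and from 0 through 820 CPM to 3194 CPM in Control members. Of DPN members 78% lay above the Control median, and the ratio was 1.55 (1.5 to 1.6), where low-Calca neurons had 1.2. Chgb, the granin chromogranin B, was at 98.2 CPM in DPN and 59.3 CPM in Control members, a ratio of 1.66. Pcsk1, the convertase that cuts peptide precursors, was at 129 CPM in DPN and 81.0 CPM in Control members, a ratio of 1.6, yet SGCs held a like level of 134 CPM in DPN and 86.6 CPM in Control. Its medians over members were close, 77.1 CPM in DPN and 73.9 CPM in Control.

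Among TRP, P2X, ASIC and Piezo channels, 5 of 13 were past 1.5-fold higher and 2 lower (all genes 26.3% and 5.85%). Their median log2 ratio was 0.37. Trpv1, the channel opened by heat, acid and capsaicin, ran from 0 through a median of 87.1 CPM to 1167 CPM in DPN members and from 0 through 196 CPM to 1836 CPM in Control members. The groups overlapped, with 18% of DPN members above the Control median, and the ratio was 0.646 (0.599 to 0.696), where low-Calca neurons had 0.829. Members of at least 300 CPM of Trpv1 numbered 12 of 100 in DPN and 19 of 61 in Control. At an equal depth of 5000 UMIs, a depth chosen after seeing the data, 48.3% of 89 DPN members and 56.9% of 58 Control members had a Trpv1 UMI, against 1.77% of DPN SGCs and 2.13% of Control SGCs, and the intervals of members overlapped (37.6 to 59.2% in DPN and 43.2 to 69.8% in Control).

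Asic1, a proton-gated sodium channel, showed the lowest ratio of this list. It ran from 0 through a median of 46.1 CPM to 1785 CPM in DPN members and from 0 through 226 CPM to 759 CPM in Control members, and 15% of DPN members exceeded the Control median. The ratio was 0.339 (0.312 to 0.367), and 0.520 in low-Calca neurons. Trpa1, the irritant receptor, was at 45.6 CPM in DPN and 15.5 CPM in Control members, a ratio of 2.94, but low-Calca neurons had a ratio of 7.02 and SGCs 6.91. Piezo2, the channel of light touch, was at 36.7 CPM in DPN and 11.1 CPM in Control members, and P2rx3, the ATP receptor of nociceptors, at 106 CPM in DPN and 114 CPM in Control, a ratio of 0.937 (0.851 to 1.03).

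Voltage-gated sodium channels had 5 of 10 past 1.5-fold higher and 0 lower (all genes 26.3% and 5.85%), with a median log2 ratio of 0.73. Scn9a encodes a tetrodotoxin-sensitive channel that amplifies small depolarisations near threshold. It ran from 0 through a median of 393 CPM to 3065 CPM in DPN members, the highest in a member of only 1305 UMIs. In Control members it ran from 0 through 226 CPM to 691 CPM, and 83% of DPN members were above the Control median. Its ratio was 1.84 (1.73 to 1.95), and low-Calca neurons had 2.05, so members relative to them had 0.896. The tetrodotoxin-resistant channels stood closer to 1. Scn10a, which carries most of the current of the upstroke in nociceptors, was at 221 CPM in DPN and 249 CPM in Control members (ratio 0.887, 0.830 to 0.947), and Scn11a, which carries a persistent current, at 235 CPM in DPN and 167 CPM in Control (1.40, 1.30 to 1.51).

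Potassium and HCN channels went both ways, with 6 of 21 past 1.5-fold higher and 3 lower (all genes 26.3% and 5.85%). The share of higher genes was near that of all genes, and the median log2 ratio was 0.21. Kcns3, a silent subunit that modulates delayed rectifier channels, ran from 0 through a median of 47.8 CPM to 684 CPM in DPN members and from 0 through 109 CPM to 614 CPM in Control members, a ratio of 0.433 (0.392 to 0.477). Kcnip4, a partner of Kv4 channels, had a ratio of 0.499, and Kcnd1, a Kv4 channel of the transient current, one of 0.670. The leak channel Kcnk2 lay at the threshold on the other side, with 114 CPM in DPN and 75.6 CPM in Control members, a ratio of 1.51. Of voltage-gated calcium channel genes 6 of 12 were past 1.5-fold higher and 0 lower (all genes 26.3% and 5.85%). Their median log2 ratio was 0.48. Cacna2d1, the subunit bound by gabapentin, ran from 0 through a median of 268 CPM to 1600 CPM in DPN members and from 0 through 130 CPM to 548 CPM in Control members. Its ratio was 2.15 (1.99 to 2.32) with 81% of DPN members above the Control median, and 2.25 in low-Calca neurons. Cacnb3, a cytosolic calcium channel subunit, went the other way, at 226 CPM in DPN and 318 CPM in Control members, a ratio of 0.711.

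**Figure D3:**
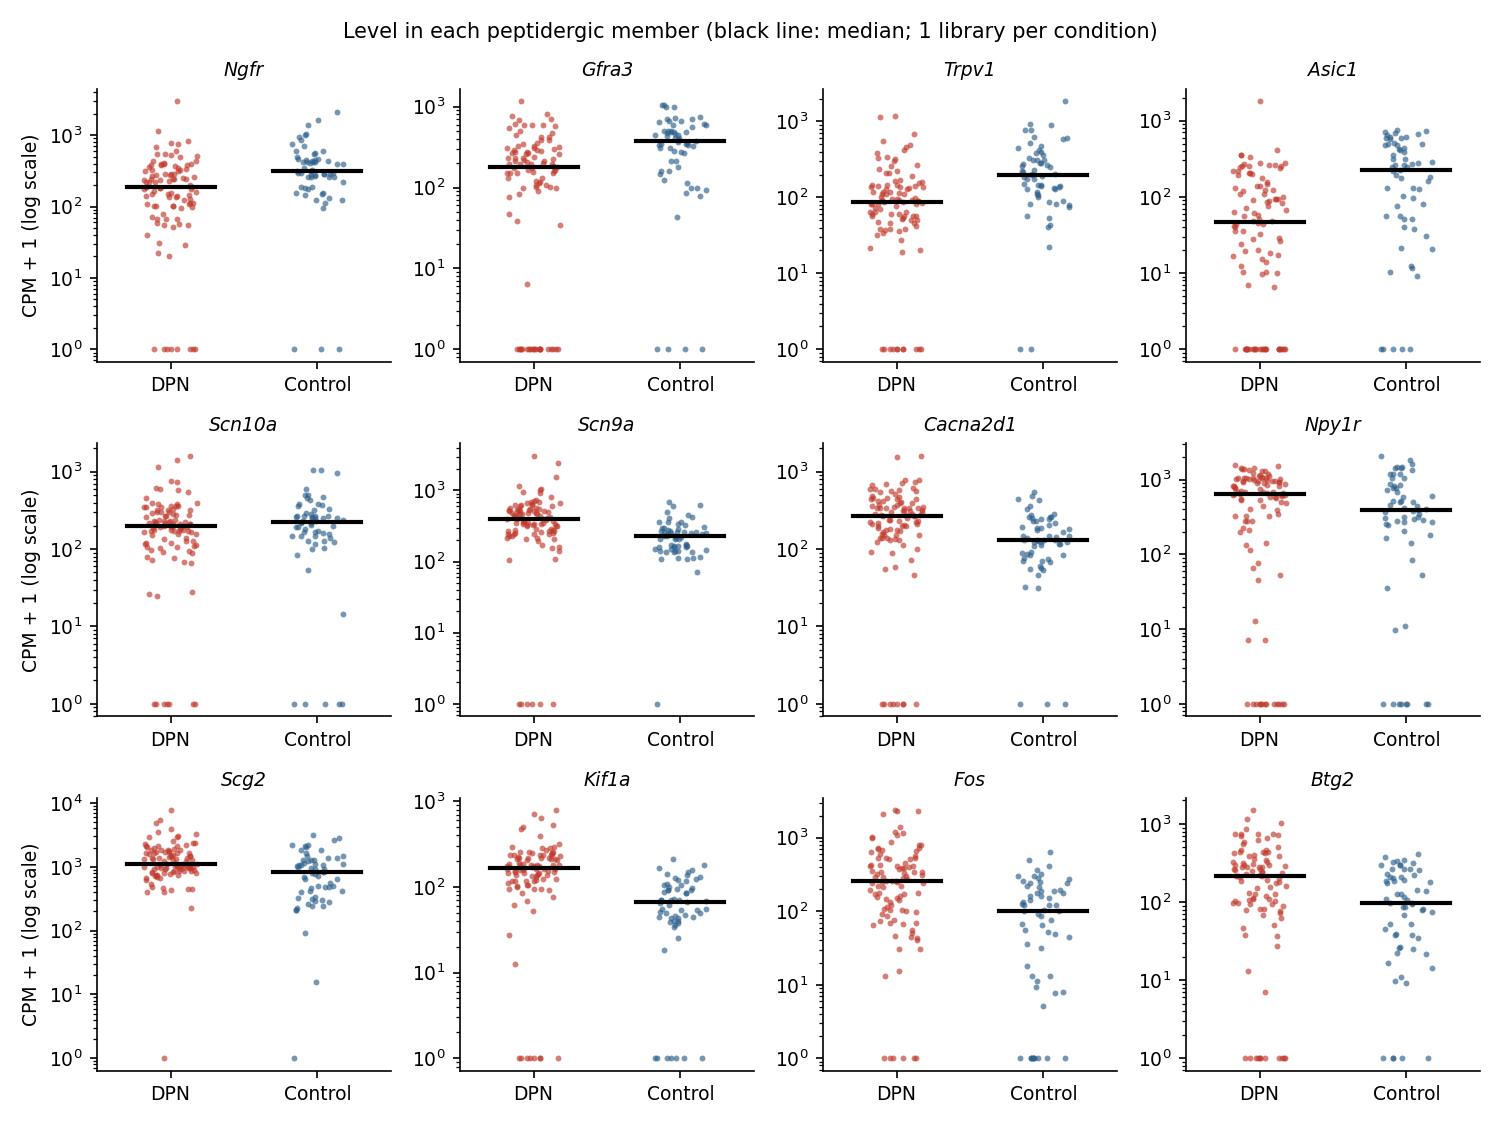
Level of 12 genes in each of 100 DPN and 61 Control members, as CPM plus 1 on a log scale, with the median as a black line and points on the lowest line holding 0 UMIs. The ranges overlap in all 12 panels. The medians of Ngfr, Gfra3, Trpv1, Asic1 and Scn10a lie lower in DPN, and those of Scn9a, Cacna2d1, Npy1r, Scg2, Kif1a, Fos and Btg2 lie higher.

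Receptors for neurotrophic factors went both ways, with 10 of 15 above 1, 7 past 1.5-fold higher and 4 lower (all genes 26.3% and 5.85%). Ngfr, the co-receptor p75, had a median of 188 CPM in DPN members and 310 CPM in Control members and a ratio of 0.502 (0.474 to 0.531), with 0.832 in low-Calca neurons. Gfra3, the receptor of artemin, a factor that maintains peptidergic fibres, had a median of 179 CPM in DPN and 375 CPM in Control members and a ratio of 0.528 (0.498 to 0.560), with 0.613 in low-Calca neurons. Its partner Ret, which signals for the whole GDNF family, was at 126 CPM in DPN and 206 CPM in Control members, a ratio of 0.611. All 3 genes thus lay past 1.5-fold lower. Above 1 stood Lifr, a receptor for leukaemia inhibitory factor, at 73.9 CPM in DPN and 19.2 CPM in Control members, a ratio of 3.85 (3.19 to 4.69) beside 3.33 in low-Calca neurons and 2.28 in SGCs.

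G protein-coupled receptors had 7 of 15 past 1.5-fold higher and 1 lower (all genes 26.3% and 5.85%). Their median log2 ratio was -0.03, a list split between both sides. Npy1r, the Y1 receptor of neuropeptide Y, ran from 0 through a median of 652 CPM to 1554 CPM in DPN members and from 0 through 389 CPM to 2083 CPM in Control members. Its ratio of 1.52 (1.45 to 1.59) was just past the threshold, came to 1.14 with equal weight per member, and was 0.917 in low-Calca neurons. Oprm1, the mu opioid receptor, was at 22.8 CPM in DPN and 6.74 CPM in Control members, a ratio of 3.38 (2.44 to 4.77), beside 4.42 in low-Calca neurons. Oprk1, the kappa opioid receptor, was at 24.9 CPM in DPN and 6.30 CPM in Control members, a ratio of 3.95 (2.84 to 5.61), and had only 2 UMIs in all low-Calca neurons together. Gabbr1, a subunit of the GABA-B receptor, had a ratio of 0.848.

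Axon cytoskeleton and transport genes had 4 of 22 past 1.5-fold higher and 0 lower (all genes 26.3% and 5.85%). Their median log2 ratio was 0.19. Kif1a, a motor that carries dense core vesicles along axons, ran from 0 through a median of 165 CPM to 784 CPM in DPN members and from 0 through 66.2 CPM to 213 CPM in Control members. Of DPN members 88% were above the Control median, and the ratio was 2.40 (2.17 to 2.66), with 2.12 in low-Calca neurons and 1.30 in SGCs. Dpysl2, which promotes axon growth by binding tubulin, was at 61.3 CPM in DPN and 13.0 CPM in Control members, a ratio of 4.70. The most abundant members of the list did not pass 1.5-fold. Tubb3, the neuronal beta tubulin, was at 4264 CPM in DPN and 5524 CPM in Control members (ratio 0.772), Map1b, a microtubule-binding protein, at 4666 CPM in DPN and 3677 CPM in Control (1.27), and Gap43, a growth cone protein, at 1133 CPM in DPN and 1169.9 CPM in Control (0.968).

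Of synaptic vesicle genes 5 of 18 were past 1.5-fold higher and 0 lower, also near the 26.3% of all genes, and the median log2 ratio was 0.04. Cplx2, a complexin that clamps vesicle fusion, was at 81.5 CPM in DPN and 32.8 CPM in Control members, a ratio of 2.48. Syn1, synapsin, was at 107 CPM in DPN and 149 CPM in Control (0.717), and Vamp2, synaptobrevin, at 676 CPM in DPN and 813 CPM in Control (0.831).

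**Figure D4:**
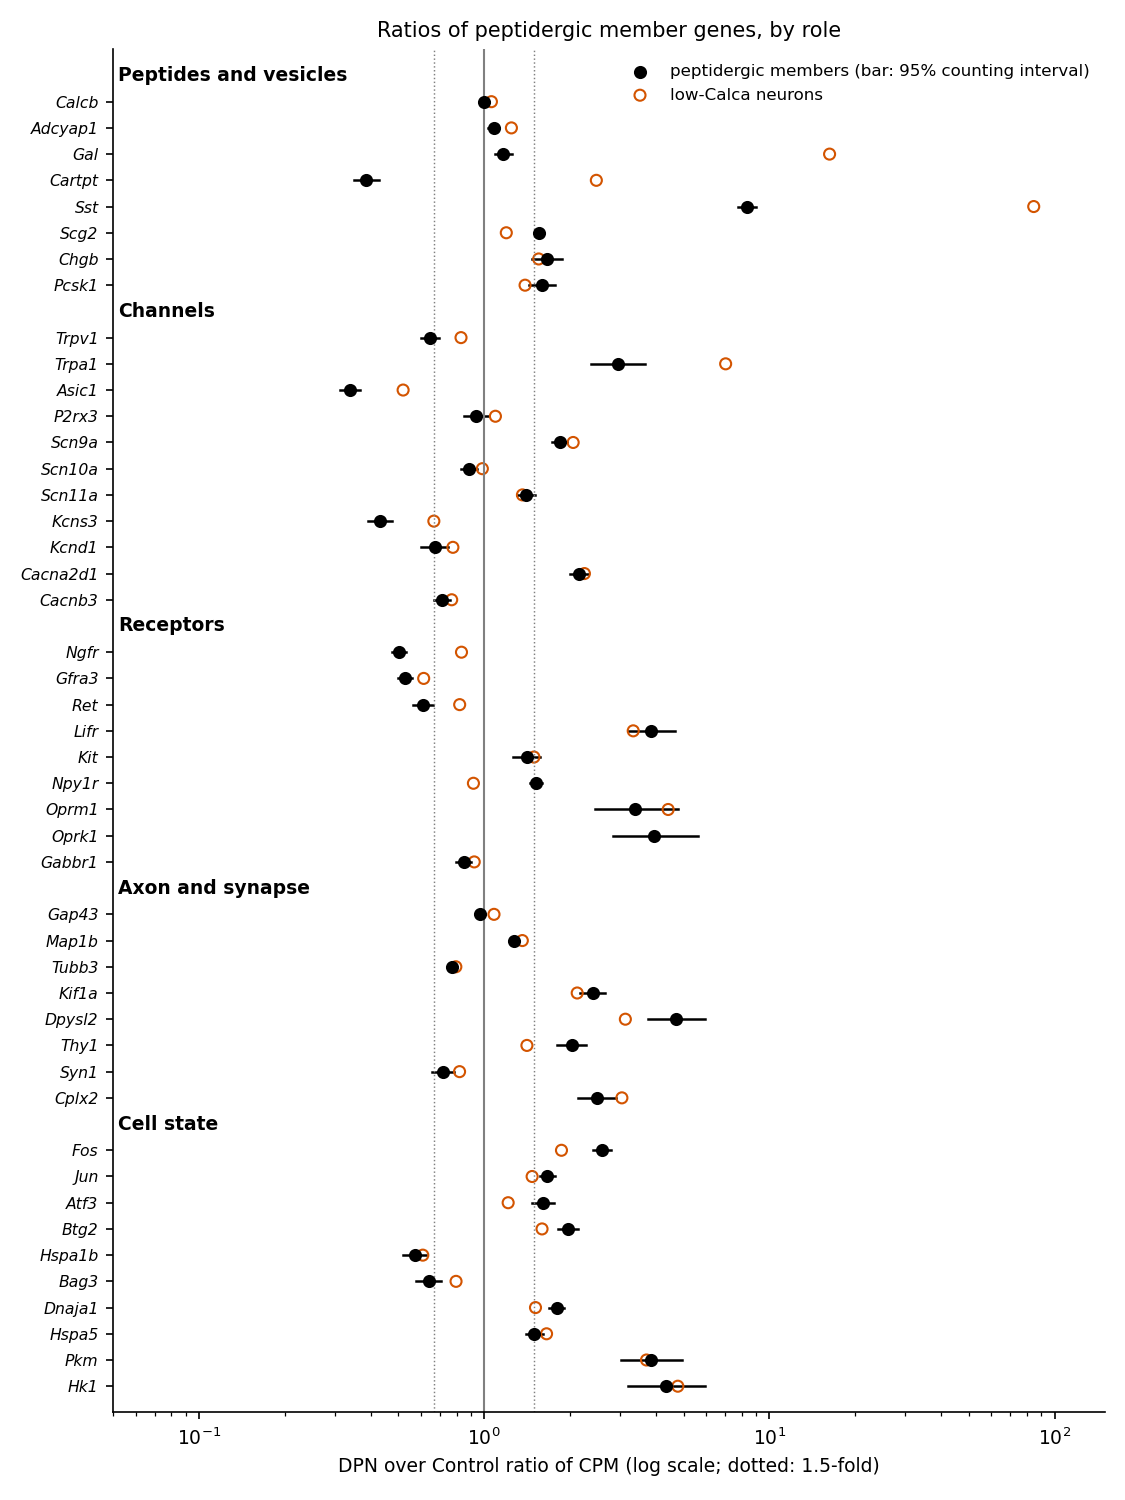
Ratio of DPN to Control CPM (log scale) for genes grouped by role, in peptidergic members (filled, with the 95% counting interval) and in low-Calca neurons (open), with dotted lines at 1.5-fold either way. Cartpt lies at 0.386 in members and 2.47 in low-Calca neurons and Npy1r at 1.52 in members and 0.917 in low-Calca neurons.

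Nerve injury response genes had 5 of 14 past 1.5-fold higher and 2 lower (all genes 26.3% and 5.85%), with a median log2 ratio of 0.40. Atf3, a transcription factor known as a mark of axotomised neurons, ran from 0 through a median of 111 CPM to 1643 CPM in DPN members and from 0 through 61.4 CPM to 446 CPM in Control members, a ratio of 1.61 (1.47 to 1.76). SGCs of the same libraries held far more, 1366 CPM in DPN and 1399 CPM in Control. Sox11, a transcription factor of regenerating neurons, was at 14.9 CPM in DPN and 3.22 CPM in Control members. Ecel1, a protease-like gene induced by nerve damage, was lower, at 1.84 CPM in DPN and 10.5 CPM in Control members.

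Immediate early genes respond within minutes to activity or stress and also to tissue dissociation. Of these 7 of 19 were past 1.5-fold higher and 1 lower (all genes 26.3% and 5.85%). Fos, a subunit of AP-1, ran from 0 through a median of 257 CPM to 2352 CPM in DPN members and from 0 through 100 CPM to 641 CPM in Control members, a ratio of 2.59 (2.40 to 2.79). Btg2, an antiproliferative early gene, had a median of 214 CPM in DPN and 95.4 CPM in Control members and a ratio of 1.96. Jun, the partner of Fos, had a ratio of 1.67. In SGCs Fos was at 4500.4 CPM in DPN and 2190.3 CPM in Control (2.05), Jun had a ratio of 1.84 and Btg2 one of 1.29, and the part of free RNA from such cells in the members' Fos was not tested. Within members of at least 10000 UMIs, Fos went with Jun at a rank correlation of 0.77 over 88 DPN cells and 0.67 over 57 Control cells, which share a library and a dissociation.

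Heat shock and folding genes of the cytosol did not move together. Past 1.5-fold, 1 of 10 was higher (Dnaja1) and 2 were lower (Hspa1b and Bag3), where all genes had 26.3% and 5.85%. Dnaja1, a co-chaperone, was at 401 CPM in DPN and 223 CPM in Control members, a ratio of 1.79, with 90% of DPN members above the Control median. Hspa1b, the inducible HSP70, was at 89.4 CPM in DPN and 157 CPM in Control members, a ratio of 0.571, with 0.609 in low-Calca neurons and 0.579 in SGCs. Hsp90ab1, an HSP90 chaperone, was at 5973 CPM in DPN and 4184 CPM in Control members, a ratio of 1.43 (1.41 to 1.45), and Hspa8, the constitutive HSC70, at 2020.2 CPM in DPN and 2705 CPM in Control, 0.747. Of genes for ER chaperones and the unfolded protein response 4 of 18 were past 1.5-fold higher and 0 lower (all genes 26.3% and 5.85%). Hspa5, the main HSP70 of the ER, was at 274 CPM in DPN and 183 CPM in Control members, a ratio of 1.499 that stopped just short of the threshold, beside 1.65 in low-Calca neurons and 3.04 in SGCs.

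Genes of glucose use were level as a group, with 4 of 19 past 1.5-fold higher and 0 lower (all genes 26.3% and 5.85%). Their median log2 ratio was -0.05. The 4 included the kinases Hk1, Pfkp and Pkm. Pkm, which makes pyruvate, was at 46.2 CPM in DPN and 12.0 CPM in Control members, a ratio of 3.84 (3.02 to 4.94), with 3.71 in low-Calca neurons, 2.37 in SGCs and 2.33 in endothelial cells. Ldha, which interconverts pyruvate and lactate, had a ratio of 1.07. Nuclear genes of the respiratory chain had 1 of 23 past 1.5-fold higher and 0 lower (all genes 26.3% and 5.85%). Their median log2 ratio was -0.13. Insulin and IGF signalling genes had 8 of 14 past 1.5-fold higher and 0 lower (all genes 26.3% and 5.85%). Their median log2 ratio was 0.72, and relative to low-Calca neurons it was -0.05. Among them Insr, the insulin receptor, was at 10.4 CPM in DPN and 5.86 CPM in Control members (1.77), and Akt1, a kinase below PI3 kinase, at 129 CPM in DPN and 176 CPM in Control (0.733).

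Of single genes with at least 200 UMIs and UMIs in at least 10% of members of a library, Arhgap26, a GTPase-activating protein, had the highest ratio, 13.4 (8.23 to 23.3), at 33.4 CPM in DPN and 2.49 CPM in Control members. It was followed by Hist1h1e, a linker histone (8.76), Sst, Ly86, a secreted immune cofactor (8.24), and Mapk8ip3, a scaffold of axonal transport (7.63). Prdm12, a regulator that developing nociceptors need, was at 44.9 CPM in DPN and 6.01 CPM in Control members, a ratio of 7.48 (5.41 to 10.6). Nufip2, Dzank1 and Napb, a SNAP protein of vesicle fusion, had ratios of 7.60, 7.47 and 7.46. In the other cells of the same libraries the ratios of these 9 genes ran from 3.76 for Arhgap26 to 84.5 for Sst in low-Calca neurons, and in SGCs from 2.0 for Hist1h1e to 17.6 for Sst. The ratio of Ly86 was 1.66 with equal weight per member, 1.73 when Calca and Tac1 had to reach 100 per 10000, and 29.9 among members under 10% mitochondrial UMIs.

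The 10 genes with the lowest ratios had UMIs in 5 to 38% of DPN members and in 21.3 to 62.3% of Control members. Chrna3, a nicotinic receptor subunit that marks mechanically insensitive nociceptors in the mouse, had 6 UMIs in all DPN members and 611 UMIs in all Control members, 0.691 CPM and 89.5 CPM, a ratio of 0.0077 (0.0028 to 0.017). At 100 CPM or more it marked 0 of 100 DPN members (interval up to 3.62%) and 8 of 61 Control members (13.1%, 5.84 to 24.2%). Within these 8 it ran from 110 CPM through a median of 376 CPM to 1855 CPM, the highest in a member of only 1617 UMIs. In low-Calca neurons it was well detected in both groups, at 141 CPM in DPN and 207 CPM in Control, a ratio of 0.680. The 8 Control cells had a Gal level of 0, a median P2rx3 of 305 CPM against 48.1 CPM in the other Control members, and a median S100a6 of 5776 CPM. The 4 genes after Chrna3, namely Anxa1, an annexin that curbs inflammation (0.0925), Krt7, a keratin (0.105), Tmem54 (0.153) and Lmo1, a transcriptional cofactor (0.239), had ratios from 0.612 to 1.15 in low-Calca neurons. Without the carriers of Sst, Chrna3 and Cartpt the ratio of Anxa1 was 2.52.

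**Figure D5:**
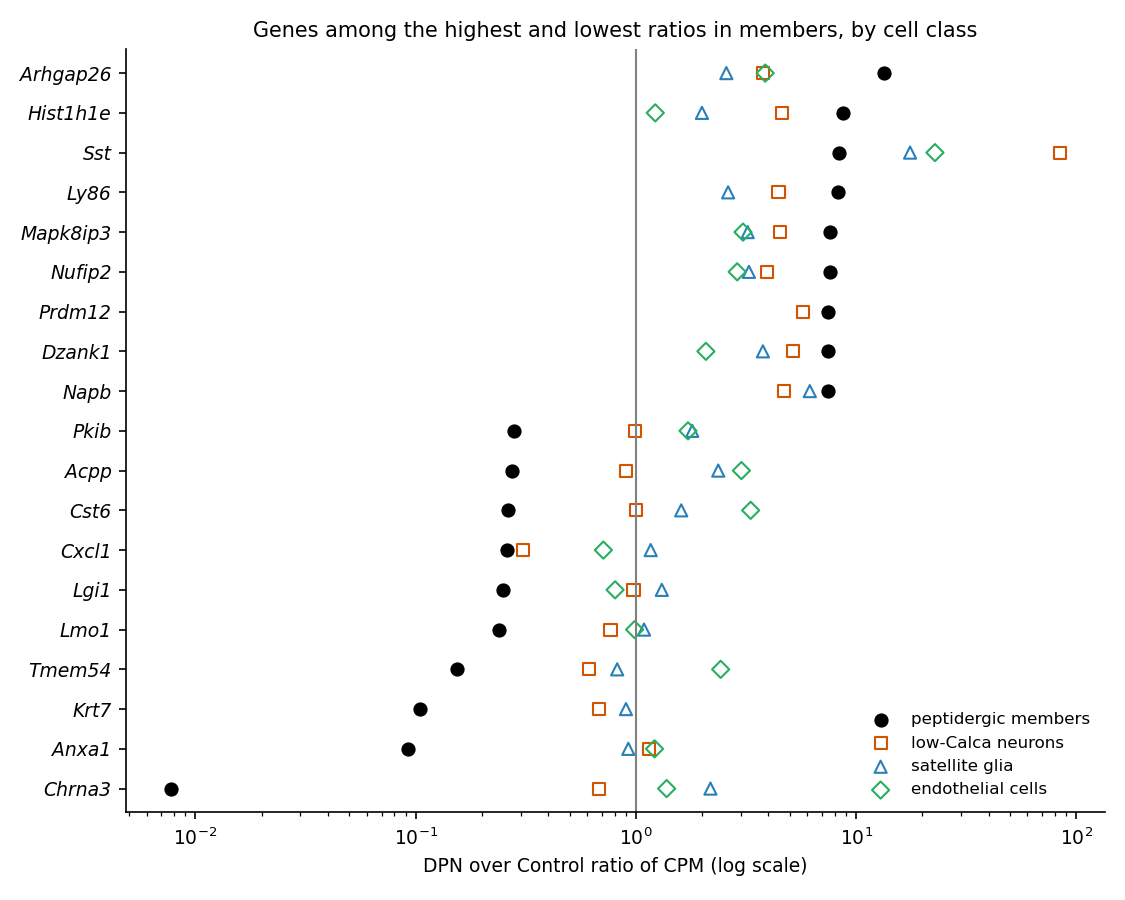
Ratio of DPN to Control CPM (log scale) for 9 of the 10 genes with the highest and the 10 with the lowest ratio in members (filled), with the ratio of the same genes in low-Calca neurons, SGCs and endothelial cells (open). The open symbols shown for the upper 9 genes run from 1.23 to 84.5, and those for the lower 10 run from 0.309 to 3.32.

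Cxcl1, a chemokine that draws neutrophils, stood apart from the rest of the lowest 10, since its ratio was 0.261 in members and 0.309 in low-Calca neurons. It was at 15.8 CPM in DPN and 60.5 CPM in Control members. Lgi1 (0.250), Cst6 (0.264), Acpp (0.274) and Pkib (0.278) had ratios of 0.902 to 1.0 in low-Calca neurons. Acpp encodes the acid phosphatase FRAP, a classic mark of non-peptidergic neurons, and was at 28.2 CPM in DPN and 103 CPM in Control members, against 520 CPM in DPN and 577 CPM in Control low-Calca neurons. The list of non-peptidergic markers summed to 1273 CPM in DPN and 495 CPM in Control members, most of it Sst in DPN, with 5 of 10 past 1.5-fold higher and 1 lower (Ret). Its median log2 ratio was 0.97, and -0.13 when members were required to reach 100 per 10000 of Calca and Tac1. Among other identity lists, 3 of 8 neurofilament neuron markers, 3 of 6 sensory neuron transcription factors and 3 of 12 pan-neuronal genes outside the rule were past 1.5-fold higher and 0 lower, beside the 26.3% of all genes, and the 1 measured marker of C-LTMR and cold neurons, the cold receptor Trpm8, was at 8.87 CPM in DPN and 1.32 CPM in Control members.

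Members varied most in a few genes that the rule did not use. Of 1321 genes considered, the highest standard deviation between members belonged to S100a6, a calcium-binding protein, at 3.51 in DPN and 3.79 in Control on the log2(CPM + 10) scale, against 1.53 in DPN and 1.55 in Control for Calca. S100a6 ran from 0 through a median of 46.5 CPM to 12042 CPM in DPN members and from 0 through 885 CPM to 13129 CPM in Control members. It was at 1000 CPM or more in 32 of 100 DPN members (32%, 23.0 to 42.1%) and 28 of 61 Control members (45.9%, 33.1 to 59.2%). In cells of at least 10000 UMIs, S100a6 went against Adcyap1 at a rank correlation of -0.35 in DPN (n = 88) and -0.43 in Control (n = 57).

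Fxyd7, a regulator of the sodium pump, came next by the mean of both standard deviations, at 2.67 in DPN and 3.17 in Control, and went with Npy1r at rank correlations of 0.47 in DPN (n = 88) and 0.37 in Control (n = 57). Cd9, a tetraspanin, and Tagln2, an actin-binding protein, varied as well. Cd9 had a median of 96.7 CPM in DPN members and 469 CPM in Control members and a ratio of 0.558, and Tagln2 a median of 382 CPM in DPN and 677 CPM in Control and a ratio of 0.586. Such correlations rest on cells that share a library and differ in depth, and are descriptions.

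Against the low-Calca neurons of the same library, members had 421 of 6196 genes (6.79%) at least 1.5-fold higher in both libraries and 308 (4.97%) at least 1.5-fold lower, a description since the classes were split on Calca and Tac1. Crabp1, a retinoic acid binding protein, led the list, at 265 CPM in DPN and 55.2 CPM in Control members, and 0.493 CPM in DPN and 0.250 CPM in Control low-Calca neurons. It had UMIs in 42% of DPN and 27.9% of Control members. Kcng1, a silent potassium channel subunit, was at 54.0 CPM in DPN and 50.8 CPM in Control members and 0.0821 CPM in DPN and 0.375 CPM in Control low-Calca neurons. Receptors followed, with Bdkrb2, the B2 receptor of bradykinin, at 17.6 CPM in DPN and 19.0 CPM in Control members, Npy1r, Npy5r and Oprk1. Cldn16, Gda, Lrrk1, Arhgap15, Kcnk3, Tcf15, Cd9, Adcyap1 and Tac1 completed the 15 with the highest ratios. Of these 15, Crabp1 (4.79), Oprk1, Gda (4.27), Npy1r and Npy5r (1.505) were at least 1.5-fold higher in DPN members, and Cd9 at least 1.5-fold lower.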

How the data were processed

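The authors deposited raw UMI counts for each gene in each barcode, from Cell Ranger 3.1.0 and STAR per the submitters' processing notes; the version of STAR and the genome build are not given in the sources used here. Counts of the 147 symbols shared by several identifiers were added. Barcodes were selected by the stated rule in Python 3.11.15 (numpy 2.4.6, scipy 1.17.1, pandas 2.3.3). Likely doublets were scored with Scrublet in scanpy 1.11.5 and marked at an assumed rate, and none was removed. Members held 8681948 of 115409375 UMIs in DPN and 6825667 of 121101966 in Control. Levels are UMIs summed over members per 1000000 member UMIs. Levels, ratios and shares carry exact Poisson, conditional binomial and binomial (Clopper-Pearson) 95% intervals, which cover counting error only.

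Groups came from the labels. With 1 library per condition no test was run, and 1.5-fold at 200 UMIs or more over both libraries (20 for lists) was the rule of size. The 34 lists held 417 genes, 13 without a matching symbol. Named genes were the 7 genes of the rule, examples of the lists, the 10 highest and 10 lowest ratios and the 15 genes highest over low-Calca neurons; further genes were named after their values were seen, and some genes are not reported here. The members and lists were chosen with earlier results of these data known. SGCs and endothelial cells were barcodes under 10 per 10000 of the neuronal genes with at least 15 per 10000 of Fabp7 and Tyrp1, or 20 per 10000 of Cldn5 and Flt1. The scripts were tested on simulated data. Alternatives covered the filters, depth, weighting, scaling and the gene minimum.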

Additional observations from a re-analysis of the deposited data

Results flagged for a closer look

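Cartpt, the CART peptide gene, had DPN over Control ratios on opposite sides of 1 in the neurons of the same libraries, 0.386 in peptidergic members and 2.47 in low-Calca neurons (interval 1.64 to 3.83, from 143 UMIs). Too few cells carried it to give more than these values, with 4 DPN and 6 Control members at 100 CPM or more. The lowest of the 4 DPN members, at 233 CPM, held only 4295 UMIs. The difference between the ratios was not tested.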

How the results depend on the processing

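No paired analysis was possible because the design has a single library in either condition and no test was run. The main counts were 1005 genes higher and 224 lower. Both were within 1.5 times from 1000 UMIs and with a further mitochondrial gene symbol. The same held with Calca and Tac1 at 100 per 10000, or neuronal genes at 60 per 10000. It also held with the 5 deepest members left out and for members of at least 10000 UMIs. Mitochondrial UMIs out of the totals, median-ratio scaling, and carriers of Sst, Chrna3 or Cartpt left out likewise kept both. Removing likely doublets or glia-rich cells took out 0 members, so it could not change any value. The 4-MAD limits left 13 DPN and 12 Control members and 30 genes higher and 27 lower of 141. Under 10% mitochondrial UMIs left 37 DPN and 14 Control members and 438 genes higher. Equal weight gave 414 lower, no minimum 4046 higher and 1208 lower of 13505, and division by low-Calca neurons 206 higher. Thinning to 1000 UMIs left 93 genes with 2 higher and 4 lower, members of 500 to under 2000 UMIs 1 gene with 1 higher and 0 lower, and members of 2000 to under 10000 UMIs 12 genes with 3 higher and 8 lower, so these say little at their depth.

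Among 138 named ratios and the list medians, those past 1.5-fold changed side in 34 values. Values closer to 1 were not counted, and among these Gal (1.17) came to 0.605 with equal weight, 0.694 thinned to 1000 UMIs and 0.0718 on division by low-Calca neurons. Under the 4-MAD limits the 34 included Npy1r 0.20, Cd9 2.05, Kcnk2 0.346, Cacna2d1 0.770, Btg2 0.693, Tagln2 1.27, Pik3r1 0.707 and the insulin and IGF median -1.11. Under 10% mitochondrial UMIs it was Nr4a2 1.26. With Calca and Tac1 at 100 per 10000 they were Anxa1 1.09, Il31ra 0.356 and the non-peptidergic median -0.13. With equal weight they were Npy5r 0.971, S100b 1.06 and Nr4a2 1.48. Thinned to 1000 UMIs it was Pik3r1 0.862, and in members of 2000 to under 10000 UMIs Npy1r 0.135 and Jun 0.817. In 2 alternatives chosen after seeing the data, leaving out the carriers gave Anxa1 2.52, and division by low-Calca neurons gave Sst 0.0987, Cd9 1.64, Trpa1 0.418, Scn9a 0.896, Cacna2d1 0.956, Oprm1 0.766, Galr1 0.640, Pdia3 0.974, Cplx2 0.818, Pik3r1 0.934, Hk1 0.907, Trpm8 0.849, Fabp7 1.58, the non-peptidergic median -0.32 and the insulin and IGF median -0.050. The cause of these changes was not tested.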

Other observations

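Shares of members with a UMI were taken at an equal depth of 5000 UMIs, a depth chosen after seeing the data. For Npy1r they were 86.5% of 89 DPN members (77.6 to 92.8%) and 65.5% of 58 Control members (51.9 to 77.5%). For Asic1 they were 34.8% in DPN and 56.9% in Control, and these intervals overlapped. Such intervals count cells of 1 library and are no test between conditions. Without thinning, Npy1r had a UMI in 87% of 100 DPN members and 86.9% of 61 Control members. Asic1 without thinning had a UMI in 76% of DPN and 91.8% of Control members. At 5000 UMIs SGCs showed Npy1r in 1.77% in DPN and 1.09% in Control. Calca, in contrast, had a UMI in 97.8% of DPN and 98.3% of Control members but also in 26.4% of DPN and 17.0% of Control SGCs.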
